A study of Mus musculus with 96 samples.

Results

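The glutathione S-transferase genes described here are Gsta1, Gsta2, Gm3776, Gsta4, Gstm1, Gstm2, Gstp1, Gsto1, Mgst1 and Mgst3, 10 of the 40202 genes in each count table. They were chosen by name after the difference between treated and untreated cells was known, so the values of that contrast are a description and support nothing. The measurements are full-length single-cell cDNA libraries (SMART-seq) of C10, an established mouse lung line that the labels call alveolar type II epithelial. Of 96 libraries, each made from 1 sorted cell, 48 came from untreated control cells and 48 from cells given the compound RO-3306 at a labelled 10 nM for 36 h. RO-3306 is sold as an inhibitor of the cell-cycle kinase CDK1. The dose on the labels is far lower than those usual for this compound, the files hold no measure of CDK1 activity, and the labels name no vehicle for the control. They name no culture, animal or passage either, so each treatment is 1 sample, no difference has a replicate check and no p-value is given.

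Glutathione S-transferases join the tripeptide glutathione to reactive, often lipophilic, molecules, which are then exported from the cell. The soluble enzymes fall into classes named by Greek letters, among them alpha (Gsta genes), mu (Gstm), pi (Gstp) and omega (Gsto), and a separate membrane-bound family (Mgst) sits in the endoplasmic reticulum and other membranes. Many of these genes are textbook targets of the oxidative-stress factor NRF2, which binds the antioxidant response element, and some alpha-class genes also of the aryl hydrocarbon receptor, which binds the dioxin response element.

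The minimum of 50000 counts and 1000 genes with a count kept 29 control and 37 RO-3306 cells. Kept totals ran from 59979 to 6457215 counts in control and from 295005 to 5321880 in RO-3306. The median cell had 5177 genes with a count in control and 6951 in RO-3306. The defining alveolar type II markers Sftpa1, Sftpc, Sftpd, Slc34a2 and Nkx2-1 were at 0 in the kept cells of both groups, and Sftpb was at 0 in control. In CPM, the count scaled to a total of 1e6, the whole list of 10 such markers summed to 23.5 in control and 27.7 in RO-3306. A list of 6 alveolar type I markers summed to 1170 and 1009 CPM, with Ager and Aqp5 at 0 in both groups. The general epithelial list summed to 1.78 and 0.978 CPM, with Krt18 and Cldn4 at 0 in both groups and Krt8 at 0 in control. The mesenchymal list summed to 5579 and 2523 CPM. Kept RO-3306 cell B3 stood apart, with 56.0% of its counts from mitochondrial genes against a group median of 4.42%. Titles carry letters A to D, which split each group into 4 sets of unstated meaning. These sets are not replicates and serve only to show whether a sign holds throughout.

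Sequence decides how well the members can be told apart. Gsta1 (chr9:78137951-78149965, plus strand), Gm3776 (chr9:78164411-78176448, plus strand), Gsta2 (chr9:78238300-78254474, minus strand) and Gsta4 (chr9:78099248-78116631, plus strand) are neighbours on GRCm39, the assembly of the deposited counts. No member's span overlapped the span of another listed gene. Of all 150-base stretches of the Gsta1 mRNA, the length of a read, 73.7% also occurred in another transcript, 62.4% in that of Gm3776. For Gm3776 the share was 77.7%, whereas for Gsta2 it was 26.8%. The deposited tables split a read with several placements into fractions, and counts were fractional in 80.5% of the libraries with a Gsta1 count and in 90% of those with a Gsta2 or a Gm3776 count. The division between Gsta1 and Gm3776 is therefore uncertain, and their sum with Gsta2 is given beside them. Gstp1 (chr19:4085411-4087912, minus strand) shared 41.8% of its stretches with Gstp2, and its counts were fractional in 93.3% of libraries. Gsta4, Gstm1, Gstm2, Gsto1, Mgst1 and Mgst3 shared none, although 19.05% to 54.8% of their libraries still held fractional counts. Of shorter stretches of 50 bases, Gstm1 shared 23.1% and Gstm2 9.36%, and Gsta4, Gsto1, Mgst1 and Mgst3 again none.

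The promoters of Gsta1, Gm3776 and Gsta2 are shown because these are the members that differed most between the groups. Sequences are from RefSeq on GRCm38.p6, an older assembly than that of the counts, and 9 of the 10 members had an entry. Gsta4 was not matched. Each line below holds 30 bases at the gene start, 5′ to 3′ along the gene, with the dioxin response element core GCGTG in capitals. The stretches lie at chr9:78230654-78230683 (plus strand), chr9:78257127-78257156 (plus strand) and chr9:78347136-78347165 (minus strand).
Gsta1: ccttactaaaggaGCGTGcacactcctctg
Gm3776: ccttactaaagtaGCGTGcacactcctctg
Gsta2: ccttactaaagtaGCGTGcacactcctctg
The core starts at position -2 in Gsta1, 11 in Gm3776 and -7 in Gsta2, counted from the annotated gene start as 0. The bases before these stretches are nearly as alike. The 120 bases upstream were the same in Gsta1 (chr9:78230532-78230651) and Gm3776 (chr9:78257005-78257124), while 105 of 122 aligned positions were identical between Gsta1 and Gsta2 (chr9:78347168-78347287). Capitals in the Gsta2 line mark bases that differ from Gsta1 or have no partner in it.
Gsta1 and Gm3776: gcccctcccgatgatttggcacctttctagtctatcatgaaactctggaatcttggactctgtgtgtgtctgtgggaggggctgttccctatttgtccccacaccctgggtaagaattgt
Gsta2: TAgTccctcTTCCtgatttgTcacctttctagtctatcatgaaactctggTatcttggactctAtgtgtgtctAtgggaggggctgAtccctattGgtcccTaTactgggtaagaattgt

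On either strand of the 300-base promoter windows, GCGTG was found in 6 of the 9 matched members (Gsta1, Gsta2, Gm3776, Gstm1, Gstp1 and Mgst3). It was found in 32.4% of all 32851 promoters. A member was counted if any of its promoters, 11 for the 9 genes, held a match. The shares of all promoters count each promoter alone, so the units differ. Gsta1, Gsta2 and Gm3776 hold GCGTG in the nearly identical stretches shown above and are not separate cases. The antioxidant response element core TGACNNNGC was found only in Mgst1 among these 9, and in 12.4% of all promoters. The windows reach 250 bases upstream of the gene start, and sites further out were not searched. The AP-1 core TGANTCA, searched for after the sequences had been read, was found only in Gstp1, and in 7.81% of all promoters. With its next bases the Gstp1 match reads TGAGTCAGC, which departs from TGACNNNGC only by G in place of the fixed C. A search for the antioxidant response element that allowed either base was not run. No matches overlapped one another in the members. The Gstp1 and Mgst1 lines show the sequence up to the gene start (chr19:4037913-4038046, minus strand, and chr6:138140411-138140526, plus strand), with the match in capitals at -74 and -56.
Gstp1: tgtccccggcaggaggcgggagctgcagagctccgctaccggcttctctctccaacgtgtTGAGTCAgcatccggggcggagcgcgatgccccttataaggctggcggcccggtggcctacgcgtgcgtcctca
Mgst1: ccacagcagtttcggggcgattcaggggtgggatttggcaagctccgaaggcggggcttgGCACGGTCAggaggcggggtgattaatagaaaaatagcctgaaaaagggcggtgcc
The Mgst1 match reads along the minus strand. A match is a string of letters in this window and shows no binding.

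The members' transcripts together made up more of the RNA in RO-3306 cells. All 10 summed to 2197 CPM in control (95% counting interval 2186 to 2209) and 5053.5 CPM in RO-3306 (5039 to 5068), 2.30 times as much (2.29 to 2.31). Control cells ran from 773 to 3474 CPM with a median of 2169, and RO-3306 cells from 455 to 8666 with a median of 4921. The ranges overlapped, but 30 of 37 RO-3306 cells lay above the highest control cell. The lowest RO-3306 cell was A11, with 3178 genes and a mitochondrial share of 18.1%. Without Gsta1, Gm3776 and Gsta2 the other 7 summed to 2193 and 4343 CPM, 1.98 times as much (1.97 to 1.99), so most of the added counts came from genes already present in control cells. Intervals are exact. Those of CPM and of their ratios cover counting error only. Those of shares of cells, given below, treat the cells of a group as independent draws. The counts include PCR copies.

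A gene was called higher when the log2 ratio of RO-3306 over control CPM, with 1 CPM added to both, was at least 1 in the summed cells and above 0 in each of the 4 sets. By that rule 6 of the 10 members were higher (Gsta1, Gsta2, Gm3776, Gsta4, Gstm1 and Mgst1), beside 7.23% of the 9374 genes that averaged 5 CPM or more over the groups. The members were picked from this contrast, so nothing is read from that difference. None was called lower, beside 6.43% of genes. Gsta1, Gsta2 and Gm3776 were below 5 CPM in control and passed that minimum only through RO-3306, so their ratios had to be above 0. The log2 ratio was above 0 in the sum and in all sets for 8 members, beside 13% of genes, the exceptions being Gstm2 and Gsto1. The median ratio of the members was 1.12, and that of the 9374 genes was -0.22.

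**Figure D1:**
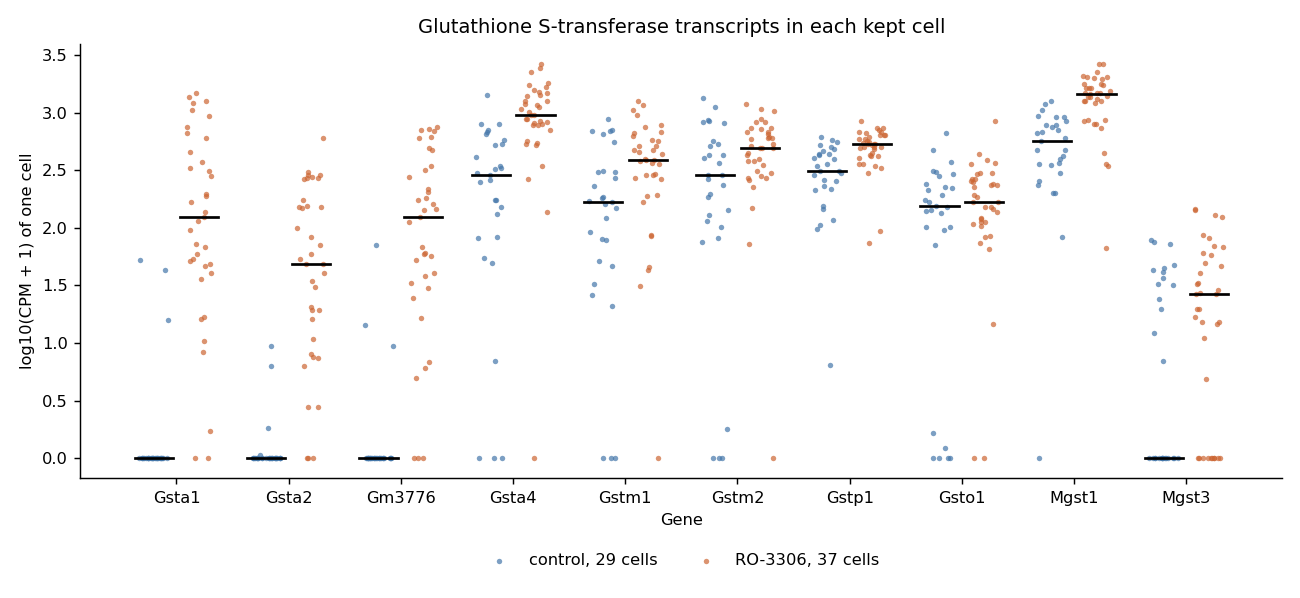
Each point is the level of 1 gene in 1 kept cell, as log10(CPM + 1), for 29 control cells (blue) and 37 RO-3306 cells (orange), with black bars at the medians. Gsta1, Gsta2 and Gm3776 sit at 0 in nearly all control cells and spread widely in RO-3306 cells, while the other genes overlap between the groups.

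The alpha-class genes Gsta1, Gm3776 and Gsta2 encode soluble enzymes that conjugate electrophiles and reduce lipid peroxides. Gsta1 was at 0 in the lowest and the median control cell and at 51.0 CPM in the highest, against 0, 123 and 1486 CPM in RO-3306 cells. It had a count in 3 of 29 control cells (10.3%, exact interval 2.19% to 27.4%) and in 35 of 37 RO-3306 cells (94.6%, 81.8% to 99.3%). Thinned to an equal 639000 counts, 1 of 25 control and 33 of 34 RO-3306 cells had one, so the difference in detection was also present at equal depth. Summed, Gsta1 had 2.71 CPM in control (2.33 to 3.14) and 373 CPM in RO-3306 (369 to 377), a log2 ratio of 6.66.

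Gm3776, a predicted gene of the same cluster, followed Gsta1. Its control cells had 0 CPM at the lowest and the median and 70.3 CPM at the highest, against 0, 123 and 742 CPM in RO-3306. The sums were 1.31 CPM (1.04 to 1.61) and 233 CPM (230 to 237), a log2 ratio of 6.67. Counts of Gm3776 were present in 3 control and 34 RO-3306 cells, and 20 of the latter lay above every control cell.

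Gsta2, which shares fewer of its read-length stretches with its neighbours, showed the same order. Control cells had 0 CPM at the lowest and the median and 8.34 CPM at the highest, and RO-3306 cells 0, 47.6 and 604 CPM. That highest control value is 0.5 of a count in D10, a library of 59979 counts. The sums were 0.284 CPM (0.173 to 0.449) and 104 CPM (102 to 106), a log2 ratio of 6.36. The control level is below the 1 CPM added, so this ratio depends on that choice. With nothing added, RO-3306 had 367 times the control CPM of Gsta2 (232 to 602). The same ratio was 179 for Gm3776 (145 to 224) and 138 for Gsta1 (119 to 160). Of the RO-3306 cells, 28 were above the highest control cell for Gsta2 and 25 for Gsta1. Gm10639, a further alpha-class-like gene between Gm3776 and Gsta2 that shares sequence with both and is no member, went from 0.0707 CPM in 4 control cells to 32.4 CPM in 32 RO-3306 cells.

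The control values of these genes came from a handful of cells. D9 held 93.6% of the control counts of Gsta1, 92.9% of those of Gsta2 and 50.1% of those of Gm3776. The sum of the 3 genes was 69.6 CPM in control cell D9, 86.0 CPM in C3, 58.4 CPM in D10 and 0.0646 CPM in B5, with no count in the other 25. For D10 this rests on 3.5 counts. Among RO-3306 cells, A11 and B3 had no count of the 3 genes and B6 had 1 count. A11 and B3 had the high mitochondrial shares given above, whereas B6 had 7608 genes and a mitochondrial share of 6.09%. The log2 ratio of the sum was 7.07, and it was 9.39 without control cells D9 and C3, a choice made after the values were seen.

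By lettered set, the log2 ratio ran from 3.40 to 8.84 for Gsta1, from 4.56 to 8.12 for Gm3776 and from 5.005 to 6.74 for Gsta2. Set D was the lowest for each, and it holds control cells D9 and D10. In set A no control cell had a count of any of the 3, and in set B only 1 had a fraction of a read, so the pseudocount fixes the ratios there. The RO-3306 side varied less between sets. The sum of the 3 genes was 502, 836, 873 and 520 CPM in sets A, B, C and D.

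**Figure D2:**
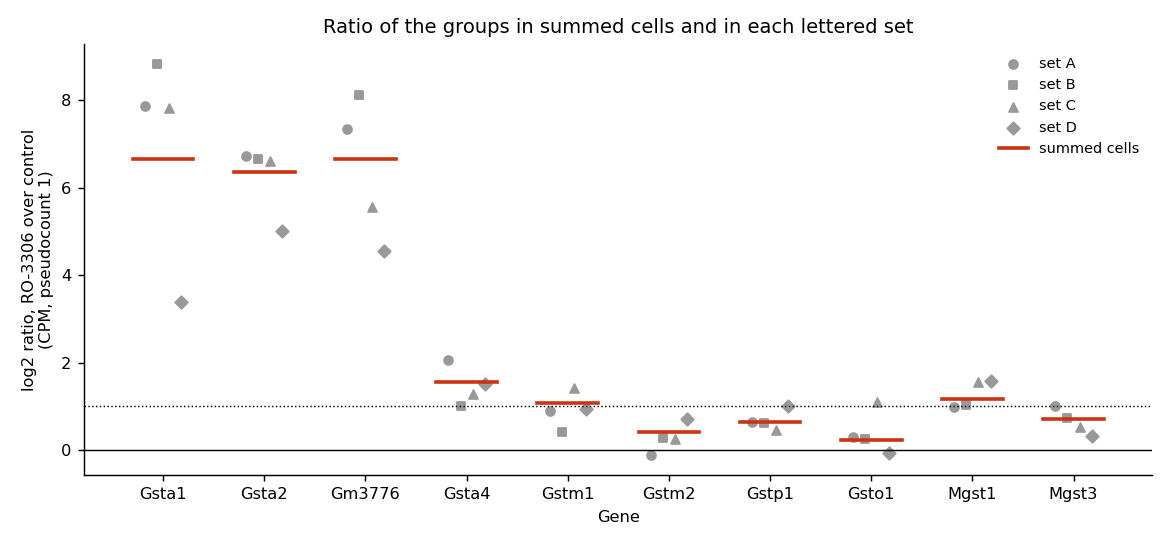
The vertical axis is the log2 ratio of RO-3306 over control CPM with 1 CPM added, as red bars for summed cells and grey symbols for the lettered sets A to D, with a dotted line at 1. Gsta1, Gsta2 and Gm3776 lie above 3 in every set, and Gstm2 and Gsto1 have a set below 0.

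The shares of the 3 genes in their common sum differed from cell to cell. In the 29 RO-3306 cells with at least 100 counts of them, Gsta1 made up 23.1% to 66.7% (median 51.1%), Gm3776 9.53% to 57.2% (median 33.03%) and Gsta2 4.71% to 61.5% (median 12.1%). Gsta1 was the largest in 18 cells, Gm3776 in 6 and Gsta2 in 5. The Gsta2-rich cells were A8, A9, A10, C1 and D6, with 46.04% to 61.5% of counts from Gsta2. None of the 10 cells with the highest sums was among them. Most read-length stretches of Gsta1 and Gm3776 are shared, and the part of read splitting in the division between them was not tested.

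**Figure D3:**
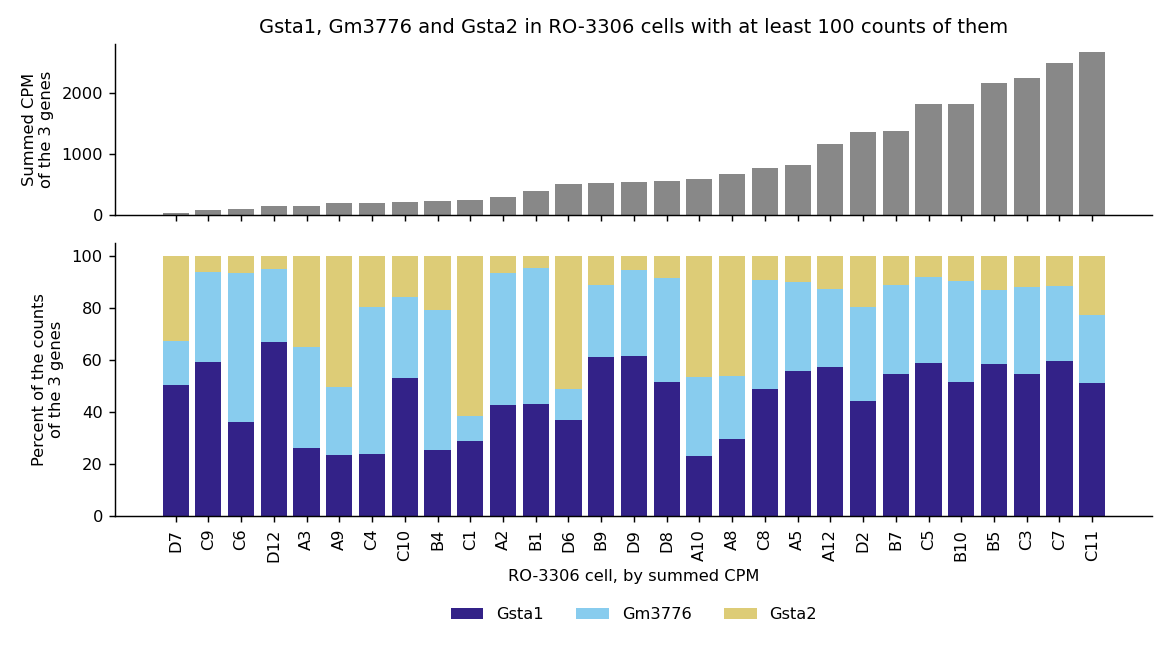
The upper bars give the summed CPM of Gsta1, Gm3776 and Gsta2 in each of 29 RO-3306 cells, in ascending order, and the lower bars the percent of those counts from each gene. Cells A8, A9, A10, C1 and D6 have Gsta2 as the largest part, at levels below those of the highest cells.

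Gsta4, an alpha-class enzyme known for conjugating the lipid peroxidation product 4-hydroxynonenal, was already present in control cells. Control cells had 0 CPM at the lowest, 283 at the median and 1427 at the highest, and RO-3306 cells 0, 956 and 2626 CPM. The groups overlapped, although 34 of 37 RO-3306 cells were above the control median and 1 of 29 control cells was above the RO-3306 median. The sums were 354 CPM (349 to 358) and 1044 CPM (1038 to 1051), 2.95 times as much (2.91 to 2.99). The log2 ratio was 1.56, and 2.07, 1.01, 1.27 and 1.5 in sets A to D.

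The mu-class genes, which encode soluble enzymes acting on epoxides and quinones, parted from each other. Gstm1 had 0, 167 and 874 CPM at the lowest, median and highest control cell and 0, 384 and 1253 CPM in RO-3306. Only 4 RO-3306 cells lay above the highest control cell. The sums were 238 CPM (234 to 242) and 501 CPM (497 to 506), a log2 ratio of 1.07 that was 0.85 without set C, 0.93 in thinned cells and 0.85 as a mean over cells. Its call therefore depends on these choices. Gstm2 had 0, 284 and 1347 CPM in control cells and 0, 495 and 1188 CPM in RO-3306 cells, so no RO-3306 cell exceeded the control range. Its sums were 413 CPM (408 to 418) and 550 CPM (545 to 555), a log2 ratio of 0.41, with -0.12 in set A. Neither position (chr3:107919566-107925289 for Gstm1, chr3:107889018-107893736 for Gstm2, both minus strand) overlaps another gene span.

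Gstp1, the pi-class enzyme that is also known to bind the stress kinase JNK, was the most evenly spread member. Every kept cell had a count. Control cells had 5.51, 312 and 612 CPM at the lowest, median and highest, and RO-3306 cells 72.9, 531 and 851 CPM. The coefficient of variation over cells was 0.487 in control and 0.321 in RO-3306, the smallest of the 10 members in both groups. The sums were 333 CPM (329 to 338) and 524 CPM (520 to 529), a log2 ratio of 0.65, and 0.45 to 1.001 in the sets. With its near copy Gstp2 added, the log2 ratio was also 0.65.

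Gsto1 (chr19:47843412-47853229, plus strand), an omega-class enzyme that reduces rather than conjugates many of its substrates, was the member closest to equal between the groups. Its cells had 0, 153 and 661 CPM in control and 0, 168 and 843 CPM in RO-3306. The groups overlapped almost fully, with 20 of 37 RO-3306 cells above the control median. The sums were 182 CPM (178 to 185) and 213 CPM (210 to 216), a log2 ratio of 0.23, with 1.10 in set C and -0.06 in set D.

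Mgst1 (chr6:138117525-138133753, plus strand), a membrane enzyme of the endoplasmic reticulum and outer mitochondrial membrane with transferase and peroxidase activity, had the most counts of any member. Control cells had 0, 561 and 1255 CPM at the lowest, median and highest, and RO-3306 cells 66.1, 1456 and 2655 CPM. No control cell was above the RO-3306 median, and 25 of 37 RO-3306 cells were above the highest control cell. The sums were 655 CPM (648 to 661) and 1478 CPM (1471 to 1486), a log2 ratio of 1.17, with 0.98 to 1.58 in the sets.

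Mgst3 (chr1:167199535-167221410, minus strand), a related membrane protein with glutathione peroxidase activity, was the lowest of the members found in many control cells. It was at 0 in the lowest and the median control cell and at 77.8 CPM in the highest, against 0, 25.4 and 145 CPM in RO-3306. Counts were present in 14 of 29 control cells (48.3%, 29.4% to 67.5%) and 27 of 37 RO-3306 cells (73.0%, 55.9% to 86.2%), so these intervals overlap. The sums were 19.5 CPM (18.4 to 20.5) and 32.4 CPM (31.2 to 33.6), a log2 ratio of 0.71, with 0.31 to 0.998 in the sets. Among the members it was the nearest below the minimum ratio of 1, as Gstm1 was the nearest above it.

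Levels can be compared between genes only per length. Per kb of mRNA, Mgst1 ranked first in both groups, at 561 CPM per kb in control and 1267 in RO-3306. In control cells Gstp1 (406 CPM per kb), Gstm2 (388) and Gsta4 (362) came next. In RO-3306 cells the second was Gsta4 (1069), followed by Gstp1 (638) and Gstm2 (517). Gsta1 moved from rank 8 (3.09 CPM per kb) to rank 5 (426). Mgst1 made up nearly the same part of the per-kb total in both groups, 27% and 25.8%, whereas Gstm2 made up 18.7% and 10.5%. The order depends on the length used. Reads were counted over whole gene spans, and per kb of span Gstp1 ranked first in both groups (133 and 209.5 CPM per kb) and Gstm2 second (87.4 and 117), with Mgst1 at rank 4 in control (40.3) and rank 3 in RO-3306 (91.1).

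**Figure D4:**
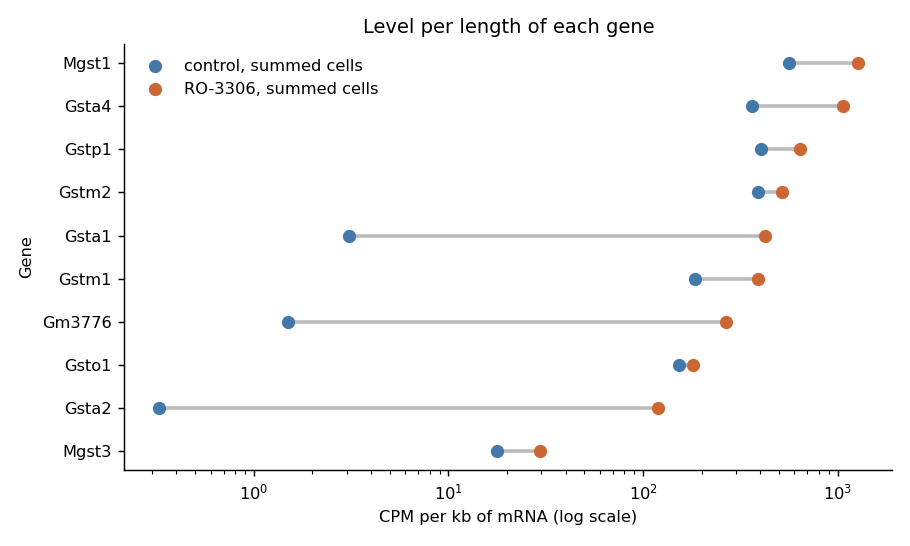
The horizontal axis is the level of each gene in CPM per kb of mRNA on a log scale, for summed control cells (blue) and summed RO-3306 cells (orange). On this scale, though not per kb of gene span, Mgst1 is highest in both groups, and Gsta1, Gm3776 and Gsta2 move from the bottom of the range into that of the other genes.

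In cells thinned to one depth, the median control cell had a count of 6 of the 10 members and the median RO-3306 cell of 10. All 10 were present in 1 of 25 control and 24 of 34 RO-3306 cells. Without Gsta1, Gm3776 and Gsta2, all of the other 7 were present in 11 control and 24 RO-3306 cells. Detection differed the same way over all genes. Of the 9374 genes, the median control cell had a count of 43.3% at this depth and the median RO-3306 cell of 58.3%, and of the genes that averaged 50 CPM or more, 69.5% and 86.78%. Its part in the members' counts was not tested.

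Within the RO-3306 group the members did not vary as a block. Over 34 thinned cells, Spearman's rho of Gsta4 with the sum of Gsta1, Gsta2 and Gm3776 was 0.55. It was 0.30 for Gsto1, 0.25 for Gstm1, 0.17 for Gstp1, 0.01 for Gstm2, -0.00 for Mgst1 and -0.34 for Mgst3. Among the 21 pairs of the 7 other members, rho ran from -0.16 to 0.47 with a median of 0.15, and in 25 control cells from -0.34 to 0.47 with a median of 0.13. The sum of the 3 genes had a rho of 0.08 with total counts, -0.05 with genes per cell and -0.30 with mitochondrial share. The cells come from 1 treated sample, and counts in a cell share 1 total, so these values are descriptions. The highest sum, 2663 CPM, was in C11, a cell with 2159 genes. The same cell had 2449 CPM of Gsta4 and 442 CPM of Mgst1, the latter below the control median.

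Of 3693 other genes that averaged 50 CPM or more, those most like the sum of the 3 genes over the 34 cells were Sat1 (rho 0.58), Mrps36 (0.55), Ctsb (0.54), Emc10 (0.53) and Mrpl1 (0.50). Over all 3693, 90% of values lay between -0.32 and 0.28. Sat1, which acetylates spermidine and spermine, had 180 CPM in control cells and 972 CPM in treated ones. Ctsb, a lysosomal protease, had 416 and 952 CPM. Mrps36 and Mrpl1, named for the mitochondrial ribosome, and Emc10, of a membrane insertion complex, had log2 ratios of -0.08, -0.22 and 0.36, so likeness between treated cells went with no common difference between the groups.

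The ratio of the groups moved with mRNA length over all genes, which bears on the members because their mRNAs are short, at 821 to 1289 bases. Over 9115 genes with a length, Spearman's rho of ratio and length was -0.36. The median log2 ratio was 0.26 in the shortest of 10 equal bins, which holds 9 members, 0.18 in the next, which holds Gstm1, and -0.88 in the longest. In the shortest bin 12.1% of genes were called higher. Set against the median of their own length bin, the log2 ratios were 6.40 for Gsta1, 6.10 for Gsta2, 6.41 for Gm3776, 1.30 for Gsta4, 0.92 for Mgst1 and 0.90 for Gstm1. For Mgst3, Gstp1, Gstm2 and Gsto1 they were 0.45, 0.40, 0.16 and -0.03. The part of length in these ratios was not tested.

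**Figure D5:**
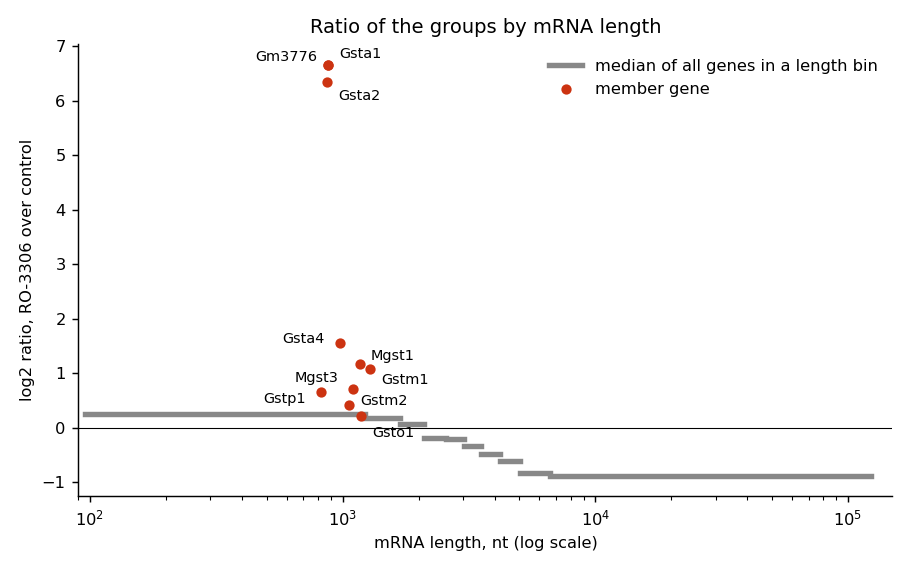
The horizontal axis is mRNA length on a log scale and the vertical axis the log2 ratio of RO-3306 over control. Grey bars give the median of all genes in each of 10 length bins, falling from 0.26 to -0.88, and red points give the members, of which Gsto1 lies at the median of its bin.

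Of 21 other genes of the superfamily in the tables, 12 averaged 5 CPM or more. All 12 ratios were above 0 with a median of 1.77, 6 were called higher (Gstm5, Gstm6, Gstt4, Gsto2, Gstk1 and Gstcd) and none lower, beside 7.23% and 6.43% of all genes and 12.1% called higher among the shortest. Gstm4, Gstm6, Gstt4, Gsto2 and Ptges were below 5 CPM in control and passed that minimum only through RO-3306. Their ratios therefore had to be above 0, and Gstm6, Gstt4 and Gsto2 are among the 6 called. The 4 most abundant of the 12 were not called. Gstp2, the near copy of Gstp1, had 79.7 and 124 CPM, and Gstt1, a theta-class enzyme, 105 and 134 CPM. Mgst2, a membrane relative of Mgst3, had 92.5 and 175 CPM, and Gstt3 had 40.2 and 74.6 CPM. Some of these calls rest on few cells. In RO-3306, Gstm6 and Gstcd each had a count in 10 of 37 cells, with a median of 0 CPM. Control cell A11 held 98.7% of the control counts of Gstt4, B4 held 97.1% of those of Gsto2 and A1 held 98.4% of those of Gstcd. Gstk1 was not called in thinned cells, and Gstm6 was not called as a mean over cells. Gstcd was not called with a pseudocount of 5 CPM, without set B or without set C. Gstm6, Gstk1 and Gstcd were not called without control cells D9 and C3. Gstk1, the peroxisomal and mitochondrial kappa-class enzyme, had 12.6 CPM in 6 control cells and 93.8 CPM in 32 RO-3306 cells. These 6 were named after their values were seen. Gsta3, Gstm7, Gstz1 and Hpgds were at 0 in both groups, and the spans of Gsta3 and Gstz1 lie almost wholly within those of other genes, and the counting tool by default leaves out reads that fall on more than 1 span.

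The other lists are to be read against the same shares of all genes, 7.23% called higher and 6.43% lower. Of 9 measured genes that make and recycle glutathione, 1 was called higher, Gsr, the reductase that regenerates glutathione (91.4 and 188 CPM), and the list's median log2 ratio was 0.59. Gclc and Gclm, the subunits of the enzyme that limits glutathione synthesis, had log2 ratios of 1.15 and 0.87, each below 0 in at least 1 set. The cystine transporter subunit Slc3a2 had 507 and 527 CPM, and Cth, which makes cysteine, 192 and 154 CPM. Of 10 glutathione peroxidases, glutaredoxins and thiol reductases, 1 was called higher, Esd, which completes glutathione-dependent formaldehyde removal (725 and 1648 CPM), with a median of 0.55. Gpx4, which reduces lipid peroxides in membranes, had 1226 and 2163 CPM, and Gpx1 844 and 1463 CPM. Prdx6, a peroxiredoxin that uses glutathione, had 944 and 1560 CPM. Of 6 exporters of glutathione conjugates none was called in either direction, with a median of -0.20. In that list Abcc1, the main conjugate pump of many tissues, had 25.1 and 22.3 CPM, Abcc3 had 20.1 and 16.9 CPM, and Abcg2 48.5 and 31.5 CPM.

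Of 14 measured genes of NRF2 and its targets, 4 were called higher and none lower, with a median of 0.68, where 7.23% and 6.43% of all genes were so called. The 4 were Ephx1 (203 and 668 CPM), Hmox1 (22.4 and 125), Srxn1 (108 and 257) and Taldo1 (207 and 487), the last 3 named after their values were seen. Nqo1, a quinone reductase often used as the readout of this pathway, had 49.5 CPM in 9 control cells and 193 CPM in 33 RO-3306 cells, with a ratio below 0 in 1 set and so no call. Prdx1 had 2391 and 4234 CPM, Txn1 1169 and 1508 CPM and Txnrd1 320 and 440 CPM. Nfe2l2, which encodes NRF2, had 102 and 91.0 CPM, and its inhibitor Keap1 29.1 and 18.9 CPM. Of 7 genes of the aryl hydrocarbon receptor battery, 1 was higher, Aldh3a1 (log2 ratio 3.37), and 1 lower, Cyp1b1 (346 and 112 CPM), with a median of -0.16. Ahr, the receptor itself, had 33.6 CPM from 4 control cells and 0.743 CPM from 4 RO-3306 cells, and Cyp1a1 was at 0 in both groups. Nfe2l2 and Nqo1 are counted in both lists.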

How the data were processed

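The deposited tables hold expected counts per gene, made by the authors with featureCounts 2.0.3 on GRCm39 per the file headers. Reads were counted over whole gene spans, and a read with several placements was split into fractions. STAR and FastQC are named in the submitters' processing notes, with versions not given in the sources used here. Per the labels' protocols, reads were single, of 150 bases. Counts were summed over kept cells and scaled to CPM. Intervals are exact (Poisson or Clopper-Pearson, 95%, counts rounded). A count over 1e-06 from a whole number was called fractional, and a 0 allows up to 3 counts. Thinning drew 639000 counts per cell (25 control and 34 RO-3306 cells). mRNA lengths are from GENCODE M21. The members and gene lists were chosen with earlier results of these data known. Named genes are all members, the 4 most abundant genes of each list with Nfe2l2, Keap1, Ahr, Gclc, Gclm and Nqo1, and the 5 most alike, except 1 gene that is not reported here. TMM (edgeR 4.0.16) and DESeq2 1.42.0 size factors, from R 4.3.3, served as alternatives, with other pseudocounts, filters, depths and left-out sets. Python 3.11.15, numpy 2.4.6, pandas 2.3.3, scipy 1.17.1 and Biopython 1.88 (global alignment of promoters) were used. The steps were tested on simulated data.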

Additional observations from a re-analysis of the deposited data

Results flagged for a closer look

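The libraries below the minimum of 50000 counts or 1000 genes, which entered only the alternative with all libraries of at least 1000 counts, also held member counts on the RO-3306 side. The 11 left-out RO-3306 libraries held 2369 counts of the 10 members (1162600 counts in all) and the 19 left-out control libraries 11.83 (341166 in all). Each value that follows exceeds the counting limit of the left-out control libraries. For the alpha-class genes there were 439 counts of Gsta1, 40 of Gsta2 and 138 of Gm3776, together 617, against 0 in control, which allows up to 8.79 CPM. Library D4 alone held 597 of these, with 874 genes detected. Gsta4 had 495 counts, of which 383 lay in D5, and Mgst1 had 383 counts and Gstm2 172.5, of which 358 and 152.5 lay in D10. Gstp1 had 685 counts, of which 322 lay in D4. Libraries D4, D5 and D10 each had fewer than 1000 genes with a count, and their mitochondrial shares were 6.04%, 87.3% and 4.68%.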

How the results depend on the processing

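Of 198 recomputed log2 ratios of the members and of the sum of the 3 alpha genes, none changed sign, 103 moved by less than their counting interval and 95 by more, since the sums are large. The count of 6 members called higher was 3 with a fold of 4 as the minimum (Gsta1, Gsta2 and Gm3776) and 5, without Gstm1, as a mean over cells, in thinned cells and without set C. It was 6 under all other settings tried, among them leaving out RO-3306 cell A11, or cells over 20% mitochondrial, or control cells D9 and C3. The first and last of these were chosen after seeing the data. The 678 genes called higher became 223 among genes of at least 50 CPM, 292 with a fold of 4, 1141 with no requirement on the sets and 1037 without set B. The 6 other superfamily genes became 1 among the 5 of at least 50 CPM, and 4 without control cells D9 and C3. The largest shift of a log2 ratio that scaling could give was 0.21 with TMM and 0.24 with DESeq2, and Gsta2 shifted less, from 6.36 to 6.48 and 6.50. Pseudocounts of 0.1 and 5 CPM gave Gsta2 log2 ratios of 8.09 and 4.37. Per kb of gene span instead of mRNA every level moved, and Gstp1, not Mgst1, ranked first in both groups. No paired analysis was possible because the result comes from no test and the numbers in the titles mark single cells with no stated link between the groups. With 1 sample per treatment, culture and treatment cannot be told apart, and the depth sets only the counting error.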
